A study of Mus musculus with 3 samples.

Results

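*Grb7*, *Erbb2*, *Erbb3*, *Egfr*, *Kit*, *Kitl*, *Epha2*, *Epha4*, *Fgfr1* and *Igf1r* were followed in RNA-seq of E14 mouse embryonic stem cells (ESCs). These 10 genes, an adaptor, 8 receptor tyrosine kinases and 1 receptor ligand, were taken by name from the 23953 genes of the 2 deposited tables, and each was found. There were 3 libraries, 1 for each label. WT is the control library, Tam is from cells with loxP-flanked *Oct4* DE (distal enhancer) given tamoxifen for 48 h, and DoxTam is from such cells given tamoxifen and doxycycline for 48 h. The paper gives the treated cells of its RNA-seq as *Oct4* DE -/-, the homozygous deletion. Tamoxifen activates the CreERT2 recombinase, which removes the flanked enhancer, and doxycycline switches on a transgene of mouse *Oct4*. The labels list the doxycycline-inducible and the tamoxifen-inducible construct for all 3 libraries, WT included, and they do not say if WT cells were parental or floxed and untreated. The constructs were delivered by lentivirus and the engineered cells were expanded from single clones, and the clone behind each library is not stated. Since each label has a single library, nothing here could be checked against replicates, and a fold compares 1 library with 1 other.

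Receptor tyrosine kinases are membrane proteins that pair up when a ligand binds outside the cell and then phosphorylate each other on tyrosines inside it. Adaptors such as GRB7 dock on these phosphotyrosines through an SH2 domain and pass the signal on, mainly to the RAS-ERK and PI3K-AKT routes. In mouse ESCs, FGF signalling through ERK is known for moving cells out of self-renewal. GRB7 binds ERBB2, and the genes of both lie close together, so that they are often amplified together in tumours. The study asked whether *Grb7*, which lies on another chromosome than *Oct4*, responds to loss of the *Oct4* DE.

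*Pou5f1*, the gene that encodes OCT4, checks the labels. It stood at 664 FPKM in WT, 529 FPKM in Tam and 458 FPKM in DoxTam, where FPKM is the number of fragments scaled by transcript length and by depth. DoxTam, whose label includes the *Oct4* transgene, had the lowest value as deposited, which goes against that label, and stood level with Tam (log2 fold of 0.01) when libraries were rescaled to the same summed FPKM. Tam, whose label has the enhancer removed and no transgene switched on, stood at 0.797 times WT (log2 fold of -0.33), and neither treated library was called lower than WT. Neither treated label is thus borne out by a called change of *Pou5f1*. Reads of the mouse transgene can count to *Pou5f1*, so WT, Tam and DoxTam stand throughout for the libraries labelled so. All 8 ESC markers reached 1 FPKM or more in each library, with summed levels of 1877, 1649 and 1512 FPKM in WT, Tam and DoxTam. Of these *Utf1* was called lower in both treated libraries against WT, with 181 FPKM in WT, 90.6 FPKM in Tam and 83.2 FPKM in DoxTam. From the FPKM worth of a single fragment, depth was estimated at about 13700000 fragments in WT, 6310000 in Tam and 7840000 in DoxTam. For the same gene at the same FPKM, counting error is therefore smallest in WT. Genes listed at 0 numbered 5333 in WT, 3667 in Tam and 6634 in DoxTam. Genes at 1 FPKM or more numbered 12075, 12376 and 11935. Tam thus had the fewest genes at 0 and the most at 1 FPKM or more, at the lowest estimated depth. Genes of low level that were highest in Tam stand beside this wider difference, whose cause was not tested.

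*Epha4* and *Kit* were the members that passed 1.5-fold between libraries, and their promoters are shown for that reason, from 250 bases before to 50 after the RefSeq start of transcription (build GRCm38.p6, 5′ to 3′ on the gene's strand). Capitals mark motif matches on either strand, searched as ATGCAAAT (the octamer bound by OCT4), TGACGTCA (the cyclic AMP response element), CCAAT (bound by NF-Y), then GGGCGG (the GC box), and last TATAAA. The *Epha4* promoter is chr1:77515039-77515338 on the minus strand and the *Kit* promoter is chr5:75574737-75575036 on the plus strand.
Epha4: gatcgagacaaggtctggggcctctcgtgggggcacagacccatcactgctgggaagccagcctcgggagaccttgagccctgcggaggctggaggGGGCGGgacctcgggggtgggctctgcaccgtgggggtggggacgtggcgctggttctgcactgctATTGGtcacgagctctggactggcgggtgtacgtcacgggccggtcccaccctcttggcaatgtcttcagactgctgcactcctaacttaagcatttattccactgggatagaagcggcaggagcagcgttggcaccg
Kit: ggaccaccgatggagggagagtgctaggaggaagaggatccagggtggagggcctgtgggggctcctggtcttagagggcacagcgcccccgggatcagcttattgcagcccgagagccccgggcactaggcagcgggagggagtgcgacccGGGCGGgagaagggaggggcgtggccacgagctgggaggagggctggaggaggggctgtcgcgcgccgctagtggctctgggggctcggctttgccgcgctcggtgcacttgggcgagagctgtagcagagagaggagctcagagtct
The *Epha4* window held a GC box at -154 and a CCAAT match at -88 from the start, and the *Kit* window held a GC box at -98. Another RefSeq start of *Kit*, with the window chr5:75574741-75575040, has this GC box at -102. RefSeq promoters were matched for 7 of the 10 members, which leaves *Grb7*, *Erbb3* and *Fgfr1* without one. GGGCGG occurred in 6 of the 7, against 35.7% of 32851 promoters of the same length. The windows of the 7 were 54.7% to 76% G and C, all above the median of 52.7% over all promoters. The part of this base content in the count of GGGCGG was not tested. CCAAT occurred in 2, *Epha4* and *Erbb2*, against 37.4% of all promoters, and TATAAA in 1, *Kitl*, against 13.6%. TGACGTCA occurred in 1, *Epha2*, at -33 from its start, against 1.79% of all promoters. The octamer was in none of the 7 windows and in 1.74% of all promoters. A match in a window is a description of its letters only.

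Levels of the members spanned from under 1 FPKM to over 70 FPKM. In WT the order was *Epha2*, *Grb7*, *Fgfr1*, *Kit*, *Erbb3*, *Igf1r*, *Erbb2*, *Epha4*, *Egfr* and *Kitl*. Neighbours that did not differ beyond 1.96 counting errors were *Fgfr1* and *Kit*, *Igf1r* and *Erbb2*, and *Erbb2* and *Epha4*. In Tam *Epha4* moved up to the place behind *Epha2*, and only *Igf1r* and *Erbb2* were neighbours within counting error. In DoxTam *Epha4*, *Igf1r* and *Kit* followed one another, and neither neighbouring pair among them differed beyond counting error. Counting error is that of the estimated fragments alone and does not hold the spread between cultures, which 1 library cannot give. In bulk RNA, fewer cells of a type and less RNA per cell cannot be told apart.

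**Figure D1:**
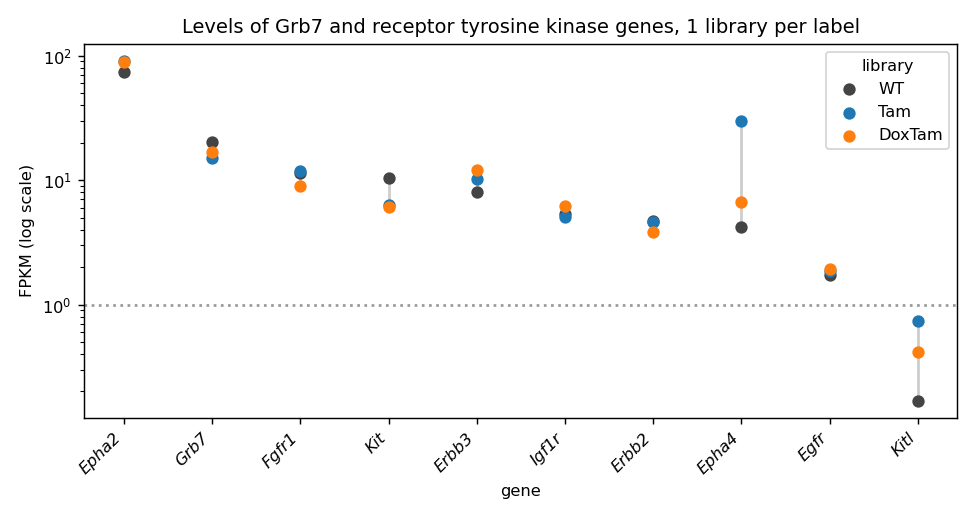
Level of each member in FPKM on a log axis, with a point for each of the 3 libraries (WT, Tam and DoxTam) and a grey line from the lowest to the highest, genes ordered by WT level; the dotted line is 1 FPKM. *Epha4* has the longest line of the members above 1 FPKM, with Tam at 29.7 FPKM, WT at 4.22 FPKM and DoxTam at 6.72 FPKM, while *Kitl* lies under 1 FPKM in all 3 libraries.

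Between libraries a fold is log2((FPKM + 1)/(FPKM + 1)), and a gene was called at 1.5-fold. Only measured genes could be called, which means those at 1 FPKM or more in either library of the pair. Tam against WT had 1 member called higher (*Epha4*), 1 called lower (*Kit*), 7 called neither and 1 not measured (*Kitl*), where 6.98% of 12705 measured genes were called higher and 3.59% lower. DoxTam against WT had none higher and 1 lower (*Kit*), with 4.12% of 12384 measured genes called higher and 5.78% lower. DoxTam against Tam had none higher and 1 lower (*Epha4*), with 2.09% of 12647 measured genes called higher and 5.74% lower. The 9 measured members had median folds of 0.04, 0.09 and -0.03 in these comparisons, against medians of 0.02, 0.00 and -0.02 over all measured genes. As a group they thus lay where most genes lay, and the calls rest on *Epha4* and *Kit*. The comparisons share libraries, so their values are given side by side and not as independent of one another.

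**Figure D2:**
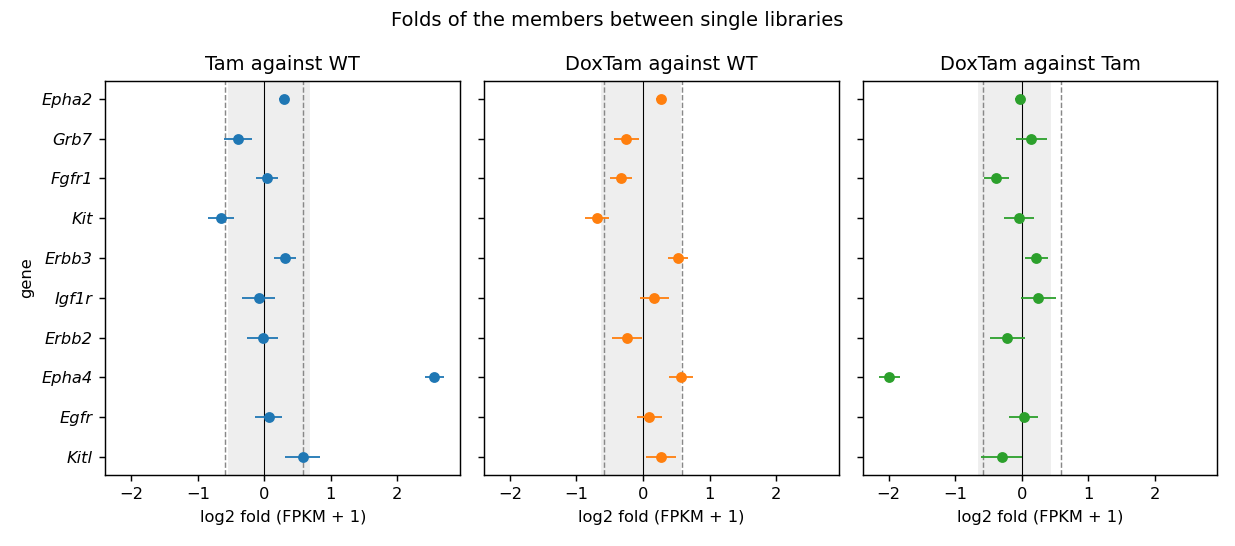
Log2 fold of each member (x axis, on FPKM + 1) in the 3 comparisons, with bars of 1.96 counting errors of the fold; dashed lines mark 1.5-fold and the grey band holds the middle of all measured genes, from the 5th to the 95th percentile. *Epha4* lies far outside the band at 2.56 for Tam against WT and at -1.99 for DoxTam against Tam, *Kit* lies past the lower dashed line at -0.65 and -0.69 against WT, and the other measured members lie between the dashed lines.

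*Grb7* lies on the plus strand of chromosome 11 at chr11:98308148-98316687 (mm9). It had 20.1 FPKM in WT, 15.0 FPKM in Tam and 16.7 FPKM in DoxTam, so WT was highest and Tam lowest. These levels rest on about 659, 227 and 315 fragments, and they exceeded those of 67.7%, 60.0% and 62.3% of the genes at 1 FPKM or more in each library. The log2 fold of *Grb7* was -0.39 ± 0.10 (counting error, on the scale of the fold) in Tam and -0.25 ± 0.09 in DoxTam against WT, and 0.15 ± 0.12 in DoxTam against Tam. *Grb7* was called in none of the comparisons under any of the settings tried. Of all measured genes 9.93% had a lower fold than *Grb7* in Tam against WT, and 24.7% in DoxTam against WT. The fold in Tam lay between -0.44 and -0.26 under every setting. The fold in DoxTam was 0.10 when libraries were rescaled to the same summed FPKM and -0.03 when the trend with GC content was removed, so that its sign depends on the scaling. Annotation places no other gene on the exons of *Grb7*.

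Genes near *Grb7* in the pair of folds against WT were sought among 4170 named genes with a WT level within 2-fold of it. *Dgat1*, which makes triglycerides, was closest at a Euclidean distance of 0.01 log2 units, with 11.2 FPKM in WT, 8.20 FPKM in Tam and 9.24 FPKM in DoxTam. *Kti12* and *Akt1*, a kinase of the PI3K route, followed at a distance of 0.02 each. There were 97 genes within 0.1 of *Grb7*, so its pair of folds is a common one.

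*Erbb2* encodes the ERBB receptor without a ligand of its own, a docking partner of GRB7. It lies near *Grb7* at chr11:98273798-98300302, with 7845 bases from its end to the start of *Grb7*. *Erbb2* had 4.69 FPKM in WT, 4.59 FPKM in Tam and 3.82 FPKM in DoxTam. Its folds against WT were -0.02 ± 0.12 in Tam and -0.24 ± 0.11 in DoxTam, the first within 1.96 counting errors of 0 and the second just beyond. The fold in DoxTam was 0.06 with the same summed FPKM, so its sign depends on the scaling. The exons of *Erbb2* share 9 bases with the antisense gene *1810046J19Rik*, and the sources used here do not say if reads were counted by strand.

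*Erbb3*, the ERBB receptor with a weak kinase that signals as a partner of ERBB2, lies at chr10:128006424-128026557 on the minus strand. *Erbb3* had 8.08 FPKM in WT, 10.2 FPKM in Tam and 12.1 FPKM in DoxTam, the lowest level in WT and the highest in DoxTam. The folds against WT were 0.31 ± 0.08 in Tam and 0.52 ± 0.07 in DoxTam, which is beyond counting error in both and short of 1.5-fold. *Egfr*, the receptor of EGF at chr11:16652206-16813910, had 1.74 FPKM in WT, 1.87 FPKM in Tam and 1.92 FPKM in DoxTam, and its folds of 0.07 ± 0.10 and 0.09 ± 0.10 against WT lay within counting error. Of the EGF family beside them, 12 other receptors and ligands were listed, 4 of these were measured in each comparison and none was called. *Hbegf*, a ligand of EGFR, stood highest among them with 42.7 FPKM in WT, 32.6 FPKM in Tam and 45.4 FPKM in DoxTam. *Nrg4*, a ligand of ERBB4, had 3.24 FPKM in WT, 2.43 FPKM in Tam and 3.65 FPKM in DoxTam.

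*Kit*, the receptor of stem cell factor, lies at chr5:75971012-76052746. It had 10.5 FPKM in WT, 6.30 FPKM in Tam and 6.11 FPKM in DoxTam, on about 751, 208 and 251 fragments. WT was the high library, and the treated libraries did not differ beyond counting error, with a fold of -0.04 ± 0.12 between them. Against WT the fold was -0.65 ± 0.10 in Tam and -0.69 ± 0.09 in DoxTam, and *Kit* was called lower in both, where 2.61% and 3.46% of measured genes had a lower fold. These calls were made under 7 of 10 settings and lost with a pseudocount of 5 FPKM, with the same summed FPKM and at 2-fold. Both comparisons share the WT library.

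*Kit* is also a gene of germ cells, and 5 germ cell markers had summed levels of 28.4 FPKM in WT, 26.9 FPKM in Tam and 32.2 FPKM in DoxTam. None of these was called against WT, and *Dppa3* was called lower in DoxTam against Tam. *Dppa3* had 1.55 FPKM in Tam and 0.405 FPKM in DoxTam, so it was measured there only through Tam and a call could only be lower. Among 4435 named genes with a WT level within 2-fold of *Kit*, those with the nearest pair of folds were *Chd7*, a chromatin remodeler, at a distance of 0.04, *Chga* at 0.05 and *Dffa* at 0.05. *Chd7* had 14.0 FPKM in WT, 8.31 FPKM in Tam and 8.18 FPKM in DoxTam. Within 0.1 of *Kit* there were 15 genes.

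*Kitl* encodes stem cell factor, the ligand of KIT, at chr10:99478458-99563046. *Kitl* had 0.169 FPKM in WT, 0.744 FPKM in Tam and 0.414 FPKM in DoxTam, from about 13.0, 26.5 and 18.3 fragments. It was under 1 FPKM in each library and was not measured in any comparison, so no call was made for it.

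*Pdgfa*, a ligand of the PDGF receptors that are relatives of KIT, had 50.4 FPKM in WT, 86.0 FPKM in Tam and 38.5 FPKM in DoxTam. It was called higher in Tam against WT, with a fold of 0.76, and lower in DoxTam against Tam, with a fold of -1.14. *Pdgfa* shares 813 exonic bases with the antisense gene *6330403L08Rik*. *Pdgfc*, a further PDGF ligand, had 4.10 FPKM in WT, 6.12 FPKM in Tam and 4.71 FPKM in DoxTam and was not called. Of 11 genes in this list of KIT relatives and ligands 4 were measured, and *Pdgfa* was the only call.

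*Epha4*, a receptor for ephrins that guides cell contacts and axons, lies at chr1:77363760-77511663 on the minus strand. It had 4.22 FPKM in WT, 29.7 FPKM in Tam and 6.72 FPKM in DoxTam, on about 366, 1185 and 334 fragments. Tam was the high library, DoxTam lay far under it, and WT was lowest. The level in Tam was 7.04 times that in WT, a fold of 2.56 ± 0.07 that exceeded the folds of 99.7% of measured genes. DoxTam had 0.226 times the level of Tam, a fold of -1.99 ± 0.08. Both calls held under each of 10 settings, with folds from 1.91 to 2.79 and from -2.13 to -1.57. These comparisons share the Tam library, and that library alone is high. DoxTam had 1.59 times the level of WT. On FPKM + 1 this gave a fold of 0.57 ± 0.09, just short of the 1.5-fold rule. It was called with a pseudocount of 0.1 FPKM (0.66) and with the same summed FPKM (0.89).

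Of 6 trophectoderm markers, *Cdx2*, *Gata3*, *Krt7* and *Elf5* had their highest level in Tam, as *Epha4* had, while *Eomes* and *Hand1* did not. The 6 markers had summed levels of 5.16 FPKM in WT, 10.5 FPKM in Tam and 7.39 FPKM in DoxTam, with none at 0. *Cdx2*, a trophectoderm transcription factor, had 0.639 FPKM in WT, 2.82 FPKM in Tam and 0.128 FPKM in DoxTam. *Gata3* had 0.098 FPKM in WT, 1.77 FPKM in Tam and 0.213 FPKM in DoxTam. *Cdx2* and *Gata3* were called higher in Tam against WT and lower in DoxTam against Tam, and both passed 1 FPKM in Tam alone, so a call could have no other direction. *Eomes* had 2.91 FPKM in WT, 4.08 FPKM in Tam and 5.43 FPKM in DoxTam and was called higher in DoxTam against WT. *Hand1* was lowest in Tam (0.995, 0.873 and 0.963 FPKM). *Krt7* had 0.386, 0.660 and 0.593 FPKM, under 1 FPKM in each library. *Elf5* had 0.130, 0.280 and 0.061 FPKM. The part of such cells in the *Epha4* level was not tested. Fibroblast markers (8 genes) summed to 6.63 FPKM in WT and 3.74 FPKM in DoxTam, with Tam between them, and with 3, 0 and 3 of them at 0 in WT, Tam and DoxTam and *Thy1* called lower in both treated libraries against WT. Primitive endoderm markers (6 genes) summed to 3.83, 3.44 and 3.61 FPKM, with none called.

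*Epha2*, a receptor for ephrin-A ligands at chr4:140857136-140885299, was the highest of 58 receptor tyrosine kinase genes in each library. It had 73.7 FPKM in WT, 90.7 FPKM in Tam and 89.1 FPKM in DoxTam. Both treated libraries lay above WT, with folds of 0.30 ± 0.04 and 0.27 ± 0.04, beyond counting error and short of 1.5-fold. Among the same 58 receptors *Epha4* ranked 19 in WT, 4 in Tam and 12 in DoxTam, and *Kit* ranked 10, 14 and 14. Receptors at 1 FPKM or more numbered 28 in WT, 27 in Tam and 27 in DoxTam.

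The other Eph receptors and ephrins, 20 genes, had no call against WT among the 11 measured for Tam and the 10 measured for DoxTam. In DoxTam against Tam 2 of 12 were lower, both ligands of EPHA receptors. *Efna3* had 11.6 FPKM in WT, 16.0 FPKM in Tam and 8.85 FPKM in DoxTam, a fold of -0.79 between the treated libraries. *Efna4* had 10.6 FPKM in WT, 15.8 FPKM in Tam and 10.1 FPKM in DoxTam, a fold of -0.60. Tam was the high library for both. *Efna3* shares 344 and *Efna4* 168 exonic bases with an antisense gene. *Ephb3*, the highest other Eph receptor, had 20.6 FPKM in WT, 21.1 FPKM in Tam and 20.0 FPKM in DoxTam, and *Ephb4* had 11.7, 8.85 and 8.04 FPKM.

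*Fgfr1*, the main FGF receptor of ESCs, lies at chr8:26629231-26686190. It had 11.5 FPKM in WT, 11.9 FPKM in Tam and 8.89 FPKM in DoxTam. The fold was 0.04 ± 0.08 in Tam against WT, -0.34 ± 0.08 in DoxTam against WT and -0.38 ± 0.10 in DoxTam against Tam, with DoxTam the low library and no call. *Fgfr1* shares 125 exonic bases with the antisense gene *Gm16159*. *Fgf4*, the FGF ligand that ESCs make, had 106 FPKM in WT, 90.9 FPKM in Tam and 90.4 FPKM in DoxTam and was not called.

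Of 13 other FGF receptors and ligands 8 were measured, none was called against WT, and in DoxTam against Tam 1 was higher and 2 were lower. The higher gene was *Fgf17*, with 4.88 FPKM in WT, 3.39 FPKM in Tam and 5.84 FPKM in DoxTam, a fold of 0.64. *Fgf3* had 1.09 FPKM in WT, 1.64 FPKM in Tam and 0.519 FPKM in DoxTam, and *Fgf10* had 1.10, 1.46 and 0.572 FPKM. Both genes passed 1 FPKM in Tam and not in DoxTam, so a call could only be lower. These low levels rest on about 34.3, 23.8 and 9.36 fragments for *Fgf3*, so its fold of -0.80 is imprecise.

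*Igf1r*, the receptor of insulin-like growth factors at chr7:75097143-75378553, had 5.38 FPKM in WT, 5.01 FPKM in Tam and 6.16 FPKM in DoxTam. Its folds of -0.08 ± 0.13 and 0.17 ± 0.11 against WT lay within counting error. Of 9 related genes 6 were measured, and 1 was called. *Igfbp3*, which binds IGFs outside the cell, had 5.24 FPKM in WT, 3.10 FPKM in Tam and 5.14 FPKM in DoxTam, a fold of -0.61 in Tam against WT. *Igfbp2*, the highest of the list, had 242 FPKM in WT, 294 FPKM in Tam and 216 FPKM in DoxTam. *Igf2r*, which clears IGF2, had 39.7, 44.2 and 43.1 FPKM.

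Among 28 further receptors, 13 were measured. *Ddr1*, a collagen receptor, had 12.2 FPKM in WT, 7.37 FPKM in Tam and 7.68 FPKM in DoxTam, and was called lower against WT in both, with folds of -0.66 and -0.61. WT was the high library for *Ddr1*. Both calls were lost when the GC trend was removed (-0.48 and -0.28), under which *Kit* kept its calls, and also with a pseudocount of 5 FPKM, the same summed FPKM and 2-fold. *Lmtk3* had 8.06 FPKM in WT, 6.49 FPKM in Tam and 3.63 FPKM in DoxTam, and was called lower in DoxTam with folds of -0.97 against WT and -0.69 against Tam. *Ddr1* shares 216 and *Lmtk3* 243 exonic bases with an antisense gene. *Ntrk2*, a neurotrophin receptor, had 0.194 FPKM in WT, 1.01 FPKM in Tam and 0.193 FPKM in DoxTam, called by folds of 0.75 in Tam against WT and -0.75 in DoxTam against Tam. *Ntrk2* counts as measured only through Tam, where it just passed 1 FPKM, so that a call could have no other direction. Each of these calls was made under 6 of 10 settings. *Lmtk2* and *Ptk7* were next in level to *Epha2*, with 42.7 FPKM each in WT, 35.5 and 41.1 FPKM in Tam, and 36.4 and 37.7 FPKM in DoxTam.

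Adaptors and effectors near the receptors, 25 genes beside *Grb7*, had 20 measured in each comparison. *Dok1*, an adaptor that dampens receptor signals, had 1.40 FPKM in WT, 6.33 FPKM in Tam and 1.17 FPKM in DoxTam, on about 34.7, 72.2 and 16.5 fragments. Tam was the high library, with folds of 1.61 against WT and -1.76 for DoxTam against Tam. *Irs2*, an adaptor of insulin and IGF receptors, had 2.29 FPKM in WT, 3.62 FPKM in Tam and 1.90 FPKM in DoxTam, and was called lower in DoxTam against Tam (-0.67). *Gab1* had 76.9 FPKM in WT, 64.5 FPKM in Tam and 73.2 FPKM in DoxTam, and *Grb2*, which links receptors to RAS, had 37.4, 30.5 and 28.2 FPKM. The close relatives of *Grb7* were low: *Grb10* had 2.08 FPKM in WT, 2.10 FPKM in Tam and 1.58 FPKM in DoxTam, and *Grb14* had 0.887, 0.989 and 0.972 FPKM, with neither called.

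Inhibitors of receptor signalling, 12 genes, were all measured. *Socs4* had 8.06 FPKM in WT, 9.06 FPKM in Tam and 13.3 FPKM in DoxTam, and was called higher in DoxTam against WT with a fold of 0.66. *Lrig1*, which promotes the removal of ERBB receptors, had 3.70 FPKM in WT, 4.67 FPKM in Tam and 2.75 FPKM in DoxTam, a fold of -0.60 in DoxTam against Tam. *Cbl*, a ubiquitin ligase for receptors, had 21.4, 19.4 and 20.8 FPKM, and *Ptpn1*, a phosphatase that acts on them, had 12.5, 11.4 and 11.8 FPKM.

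Over the 130 genes of the 8 lists, 3 of 78 measured were called higher (3.85%) and 2 lower (2.56%) in Tam against WT, beside 6.98% and 3.59% of all measured genes. In DoxTam against WT 1 of 77 was called higher (1.30%) and 2 lower (2.60%), beside 4.12% and 5.78%. In DoxTam against Tam 1 of 79 was called higher (1.27%) and 10 lower (12.7%), beside 2.09% and 5.74%. The shares called were thus under those of all genes but for the lower calls of DoxTam against Tam. Those lower numbered 6 when the GC trend was removed and 6 with the same summed FPKM, beside 4.45% and 4.30% of all measured genes. The 10 lower genes were *Pdgfa*, *Efna3*, *Efna4*, *Fgf3*, *Fgf10*, *Ntrk2*, *Lmtk3*, *Dok1*, *Irs2* and *Lrig1*. These calls held under all 10 settings for *Pdgfa* and *Dok1*, 9 for *Efna3* and 7 for *Fgf3* and *Fgf10*. They held under 6 for *Ntrk2* and *Lmtk3*, 5 for *Irs2*, 4 for *Efna4* and 3 for *Lrig1*. The 10 genes were taken for a level in Tam above that in DoxTam, so this difference is no separate observation. All but *Lmtk3*, which was highest in WT, had their highest level in Tam. *Fgf10*, *Irs2* and *Lrig1* share 123, 162 and 120 exonic bases with an antisense gene. Medians of the lists together were 0.00, -0.09 and -0.03 in the 3 comparisons, beside 0.02, 0.00 and -0.02 over all measured genes.

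**Figure D3:**
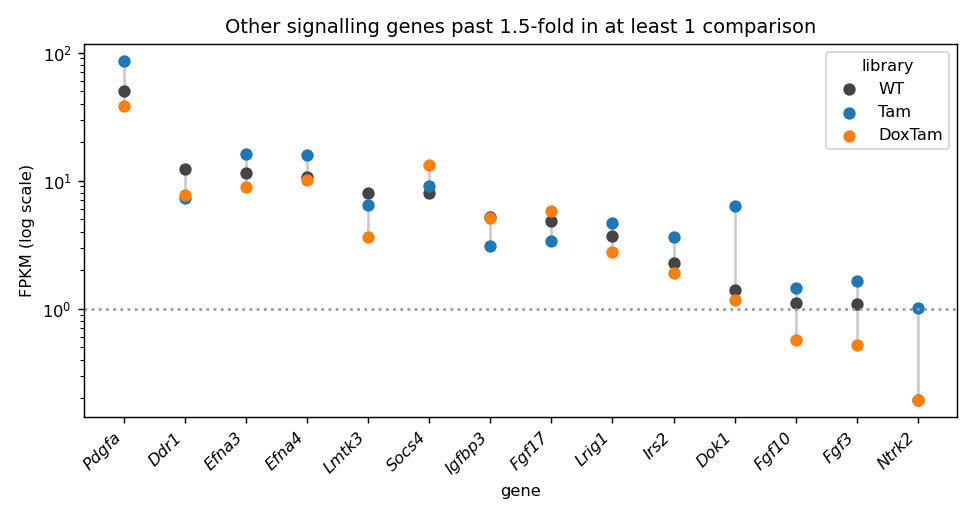
Level in FPKM (log axis) of the 14 genes of the pathway lists called in at least 1 comparison, with a point for each of the libraries WT, Tam and DoxTam and a grey line from lowest to highest; the dotted line is 1 FPKM. *Pdgfa* is the highest gene and *Dok1* has Tam at 6.33 FPKM against 1.40 FPKM in WT, while *Ddr1* has both treated libraries under WT.

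The members' folds depended on scaling in different ways. Rescaling to the same summed FPKM moved the median fold of all measured genes to 0.15 in Tam against WT, 0.32 in DoxTam against WT and 0.17 in DoxTam against Tam. Of the summed FPKM, 43.1% in WT, 35.3% in Tam and 27.4% in DoxTam belonged to 1 entry, *Mir6236*, named as a microRNA gene. Rescaling to the same summed FPKM thus largely follows this 1 entry. What RNA its fragments came from was not tested. Without small RNA genes in the sum the medians were -0.03, -0.01 and 0.02. Of called genes, 66.0% were higher in Tam against WT as deposited, 83.8% with the same sum and 56.0% with the sum without small RNAs. In DoxTam against WT the share was 41.6% as deposited and 92.6% with the same sum, and in DoxTam against Tam it was 26.7% and 58.3%.

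**Figure D4:**
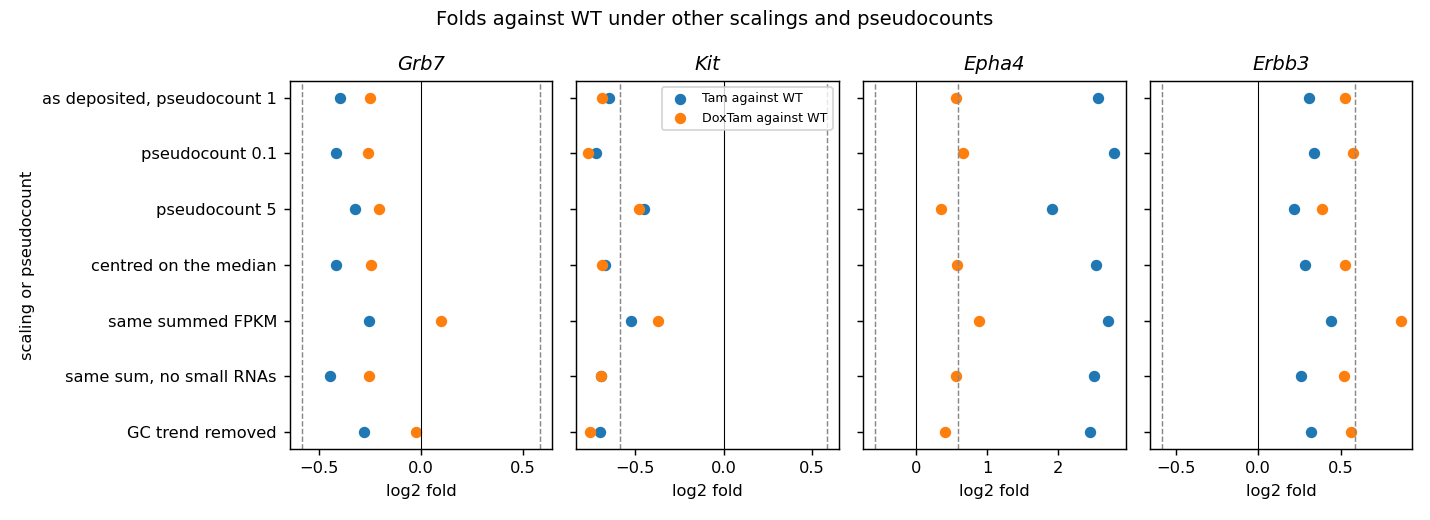
Log2 folds of *Grb7*, *Kit*, *Epha4* and *Erbb3* for Tam and DoxTam against WT (points) under 7 scalings and pseudocounts (rows); dashed lines mark 1.5-fold, and the x axes of the panels differ. *Epha4* in Tam stays past 1.5-fold throughout, *Kit* falls short of it in 2 rows, and *Grb7* stays between the dashed lines, with the DoxTam fold at 0.10 on the other side of 0 for the same summed FPKM.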

How the data were processed

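RNA-seq of 3 libraries was analysed from 2 gene tables, each setting a treated library beside WT. The deposited values are FPKM, made by the authors with TopHat, Bowtie and Cufflinks 2.0.0 on mm9 by the submitters' processing notes, and the sources used here do not name the annotation. The deposited log2, test statistic, p-value and q-value columns hold the authors' own comparison and were not used. Rows were joined by position because 27 gene names differed between the tables. WT differed by over 1% for 2 genes.

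Libraries were grouped by their labels. Folds are log2((FPKM + 1)/(FPKM + 1)) without further normalization. With 1 library per label no test was made, and 1.5-fold with at least 1 FPKM in 1 library was the rule for a call. Estimated fragments come from the smallest steps of the deposited FPKM, and counting errors from them cover counting only. Alternatives were other pseudocounts (0.1 and 5 FPKM), dropping the filter or raising it to 5 FPKM, centring on the median, 2 rescalings to a summed FPKM, removal of a GC trend (lowess, span 0.2) and 2-fold. The members and lists were chosen with earlier results of these data known. Named list genes are those called in at least 1 comparison and the 2 with the highest WT level per list, and for *Grb7* and *Kit* the 3 nearest genes. *Grb10*, *Grb14* and the markers named with values were chosen after their values were seen. Gene positions are those of the deposited tables (mm9), strand and exon overlaps come from the GENCODE annotation of that build, and promoters come from RefSeq (GRCm38.p6). Scripts used Python 3.11.15 with pandas 2.3.3, numpy 2.4.6 and statsmodels 0.14.6, and were tested on simulated data.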

Additional observations from a re-analysis of the deposited data

How the results depend on the processing

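No paired analysis was possible because each label has 1 library. No called fold of a member changed sign under any of the 9 alternatives, and *Epha4* was called in Tam against WT and in DoxTam against Tam under each. Of the list genes, *Dok1* in both of its calls and *Pdgfa* in DoxTam against Tam kept the call under each alternative, and each other called fold lost it under at least 1. In Tam against WT 0 members were lower, in place of 1, with a pseudocount of 5 FPKM, the same summed FPKM and 2-fold. Genes of the lists called higher in Tam against WT numbered 6 with a pseudocount of 0.1 FPKM and 8 with the same sum, in place of 3. They numbered 5 without the GC trend and 1 at 2-fold. In this order, 10.1%, 10.96%, 5.31% and 2.13% of all measured genes were called higher, in place of 6.98%. List genes called lower in Tam against WT numbered 4 with a pseudocount of 0.1 FPKM, in place of 2. They numbered 0 with a pseudocount of 5 FPKM, the same sum, the GC trend removed and 2-fold. Over all measured genes the shares called lower under these settings were 5.96%, 1.32%, 2.11%, 2.26% and 0.73%, in place of 3.59%. In DoxTam against WT members higher numbered 1 with a pseudocount of 0.1 FPKM and 3 with the same sum (*Erbb3*, *Epha2* and *Epha4*), in place of 0, and members lower numbered 0 with a pseudocount of 5 FPKM, the same sum and 2-fold, in place of 1. List genes higher numbered 2 with a pseudocount of 0.1 FPKM, 0 with 5 FPKM and at 2-fold, and 9 with the same sum, in place of 1. The shares of all measured genes called higher were 6.92%, 1.42%, 0.71% and 22.0% under these settings, in place of 4.12%. List genes lower numbered 6 with a pseudocount of 0.1 FPKM, 1 with 5 FPKM, the same sum and the GC trend removed, and 0 at 2-fold, in place of 2. Shares of all measured genes called lower were 9.25%, 2.12%, 1.76%, 2.17% and 1.04% under these settings, in place of 5.78%. In DoxTam against Tam list genes higher numbered 3 with a pseudocount of 0.1 FPKM, 0 with 5 FPKM and at 2-fold, 2 after centring, with the sum without small RNAs and without the GC trend, and 6 with the same sum, in place of 1. In the same order, 3.71%, 0.59%, 0.46%, 2.32%, 2.53%, 1.61% and 6.02% of all measured genes were called higher, in place of 2.09%. List genes lower numbered 3 with a pseudocount of 5 FPKM, 5 with a filter at 5 FPKM, 6 with the same sum and without the GC trend, and 2 at 2-fold, in place of 10. Beside these, 1.53%, 3.52%, 4.30%, 4.45% and 1.98% of all measured genes were called lower, in place of 5.74%. The cause of these changes was not tested, except that 2-fold and the larger pseudocount leave fewer genes past the threshold by construction. Depth limits genes of low level, such as *Kitl* (about 13.0 fragments in WT) and *Fgf3* (about 9.36 in DoxTam).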
